A study of Mus musculus with 16 samples.

Results

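The 10 genes described here encode the machinery of inflammasomes and of lytic cell death: the sensors *Nlrp3*, *Nlrc4*, *Naip2* and *Naip5*, the adaptor *Pycard*, the inflammatory caspases *Casp1* and *Casp4*, the pore former *Gsdmd*, and the necroptosis genes *Ripk3* and *Mlkl*. They were taken by gene symbol from a table of 55487 genes measured in mouse cerebral cortex, and all 10 were found. The cortex came from 16 wild-type (WT) male C57BL/6 mice, 2 months old, that received i.p. lipopolysaccharide (LPS), a component of the outer membrane of gram-negative bacteria, at 2 mg/kg, or PBS as the control. Injections were given on 2 days in a row at zeitgeber time (ZT) 1, shortly after lights on, or at ZT13, shortly after lights off, and the brain was taken on the day after the last injection. The groups were 3 mice for ZT1 PBS, 5 for ZT1 LPS, 3 for ZT13 PBS and 5 for ZT13 LPS, and they addressed whether the time of day (TOD) of the challenge alters the response of the brain. No group carried a transgene or a deletion. By the study's account tissue was collected about a day after the last injection, so the hour of injection and the hour of collection cannot be told apart.

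An inflammasome is a protein complex that assembles in the cytosol when a sensor meets a danger signal or a bacterial product. Sensor and adaptor gather caspase 1, which then cuts the precursors of interleukin 1 beta and interleukin 18 and cuts gasdermin D, whose released fragment opens pores in the plasma membrane in a form of death called pyroptosis. Caspase 4, also called caspase 11 in the mouse, binds LPS in the cytosol directly and cuts gasdermin D on its own. Necroptosis is a separate lytic death in which the kinase RIPK3 phosphorylates MLKL, which then breaks the membrane. In the brain, microglia are the best known source of NLRP3 inflammasomes, and infiltrating monocytes and neutrophils carry much of the same machinery. Transcripts of these genes report how much of the machinery could be made, and they do not report whether a complex assembled or a cell died.

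RNA was measured in whole cortex after depletion of ribosomal RNA and is given in CPM, the reads on a gene for every 1000000 reads on all genes of that mouse. The libraries held 20251840 to 29112758 reads on genes, so 3 reads, the limit taken for detection, corresponded to 0.103 to 0.148 CPM. Genes at 1 CPM or more in at least 3 of the 16 mice were tested, 18859 in all. All 10 genes passed this filter, but 8 of them, all except *Pycard* and *Gsdmd*, passed only through the mice treated with LPS. One label field for treatment contradicted the sample titles in 12 of the 16 mice, and the titles were used, with *Gfap*, an astrocyte gene, at 111 to 123 CPM in the 6 mice titled PBS and 572 to 1134 CPM in the 10 titled LPS. The tissue label was checked with neuronal genes, and *Snap25* lay between 1199 and 1357 CPM in every mouse.

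The start sites of the genes that the results turn on are given as RefSeq promoter windows on build GRCm38.p6, each running from 250 bases before to 50 bases after the annotated start, 5′ to 3′ on the strand of the gene. The window of *Casp4* (chr9:5308599-5308898, plus strand) is printed because this gene had, with *Mlkl*, the largest ratio of LPS to PBS reads at ZT13, and capitals mark 2 overlapping matches to the kappaB motif, which NF-kappaB proteins bind. The upstream window of *Nlrp3* (chr11:59541319-59541618, plus strand) has its kappaB match in capitals.
Casp4: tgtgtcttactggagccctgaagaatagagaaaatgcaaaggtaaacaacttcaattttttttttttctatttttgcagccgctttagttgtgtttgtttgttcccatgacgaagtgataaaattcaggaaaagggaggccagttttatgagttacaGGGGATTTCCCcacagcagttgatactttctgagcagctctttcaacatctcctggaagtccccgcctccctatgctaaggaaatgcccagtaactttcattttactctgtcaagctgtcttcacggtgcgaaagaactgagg
Nlrp3: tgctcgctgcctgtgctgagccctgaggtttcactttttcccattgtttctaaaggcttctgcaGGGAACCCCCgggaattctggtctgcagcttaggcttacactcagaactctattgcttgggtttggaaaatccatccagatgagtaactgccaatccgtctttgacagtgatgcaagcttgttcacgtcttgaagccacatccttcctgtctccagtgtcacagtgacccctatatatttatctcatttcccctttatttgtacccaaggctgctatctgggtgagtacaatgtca

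The windows of *Casp1* (chr9:5298267-5298566, plus strand) and *Ripk3* (chr14:55788808-55789107, minus strand) are printed because the comparison of times of day makes circadian elements of interest, and capitals mark an E-box with the letters CACGTG, which CLOCK, BMAL1 and other basic helix-loop-helix proteins can bind.
Casp1: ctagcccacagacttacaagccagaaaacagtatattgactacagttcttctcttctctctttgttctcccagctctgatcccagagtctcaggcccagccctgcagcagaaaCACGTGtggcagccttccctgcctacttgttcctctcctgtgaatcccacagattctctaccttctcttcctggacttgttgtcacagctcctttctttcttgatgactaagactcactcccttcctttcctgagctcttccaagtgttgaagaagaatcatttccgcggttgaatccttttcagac
Ripk3: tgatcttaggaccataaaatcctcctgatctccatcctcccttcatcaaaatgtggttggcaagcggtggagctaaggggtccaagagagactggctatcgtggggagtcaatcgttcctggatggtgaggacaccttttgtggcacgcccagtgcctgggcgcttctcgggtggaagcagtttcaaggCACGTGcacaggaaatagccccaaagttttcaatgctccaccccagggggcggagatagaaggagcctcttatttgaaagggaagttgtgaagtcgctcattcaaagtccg

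The windows of the neighbouring paralogs *Naip2* (chr13:100202073-100202372, minus strand) and *Naip5* (chr13:100247287-100247586, minus strand) are printed because their levels ran most alike among the 10 genes. Their transcripts share sequence, and the part of shared reads in that likeness was not tested. Capitals mark the runs of at least 12 bases that both windows share in the same order.
Naip2: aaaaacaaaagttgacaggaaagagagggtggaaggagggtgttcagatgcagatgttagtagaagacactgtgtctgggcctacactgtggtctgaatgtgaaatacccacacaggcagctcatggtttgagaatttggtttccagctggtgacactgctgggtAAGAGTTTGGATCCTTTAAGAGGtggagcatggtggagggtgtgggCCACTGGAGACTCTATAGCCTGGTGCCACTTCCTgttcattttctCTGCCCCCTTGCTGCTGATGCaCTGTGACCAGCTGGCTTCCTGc
Naip5: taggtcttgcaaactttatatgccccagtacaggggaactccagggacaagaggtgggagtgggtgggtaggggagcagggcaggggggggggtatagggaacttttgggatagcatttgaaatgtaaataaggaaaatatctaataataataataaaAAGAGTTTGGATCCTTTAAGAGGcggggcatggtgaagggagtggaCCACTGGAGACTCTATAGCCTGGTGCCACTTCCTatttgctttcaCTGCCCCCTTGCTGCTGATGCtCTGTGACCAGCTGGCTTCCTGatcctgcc

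The kappaB match of *Casp4* began 93 bases before the annotated start of the printed window and 104 bases before that of a second window. That of *Nlrp3* began 186 bases before and a further one in *Naip5* 218 bases before. These distances refer to RefSeq starts. The *Naip5* window lies wholly upstream of the gene coordinates given below, which end at 100246323. Such a match was found on either strand in 4.51% of the 32851 mouse promoter windows of the same length. The E-box of *Casp1* began 137 bases upstream and that of *Ripk3* 61 bases upstream, and 7.15% of all windows held one. The GAS motif of STAT factors (TTCNNNGAA), present in 8.30% of all windows, and the interferon-stimulated response element (GAAA and GAAA with 2 bases between), present in 3.44%, had no match in the windows of the 9 genes that the table holds. *Naip2* and *Naip5* shared 4 such runs covering 99 bases, the longest of 34 bases, and the best local alignment of the windows was identical at 123 of 134 positions, or 91.8%. These matches describe letters in short windows and were not tied to binding or to any difference between groups.

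After LPS at ZT1, 7 of the 10 genes rose, against 11.1% of all genes tested, and the 3 that did not pass were *Casp1*, *Ripk3* and *Nlrc4*. After LPS at ZT13, 9 of the 10 rose, against 19.2% of all genes, and only *Nlrc4* did not pass. None fell at either time. Of the 10 genes, 8 passed the filter only through the LPS mice, so a fall was hardly open to them. The genes were also chosen with earlier results of these data known, so the counts are a description. The median log2 fold change of the 10 genes was 1.09 at ZT1 and 1.52 at ZT13, beside 0.04 and 0.05 for all genes tested. The lowest LPS mouse lay above the highest PBS mouse for 7 genes at ZT1, where this held for 15.9% of all genes, and for 9 genes at ZT13, where it held for 20.9%. These calls came from limma on log2(CPM + 0.5), with adjustment over all genes and a threshold of 0.05. Fold changes on that scale understate the change of genes as low as these, and in bulk tissue more cells of a type and more RNA per cell cannot be told apart.

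**Figure D1:**
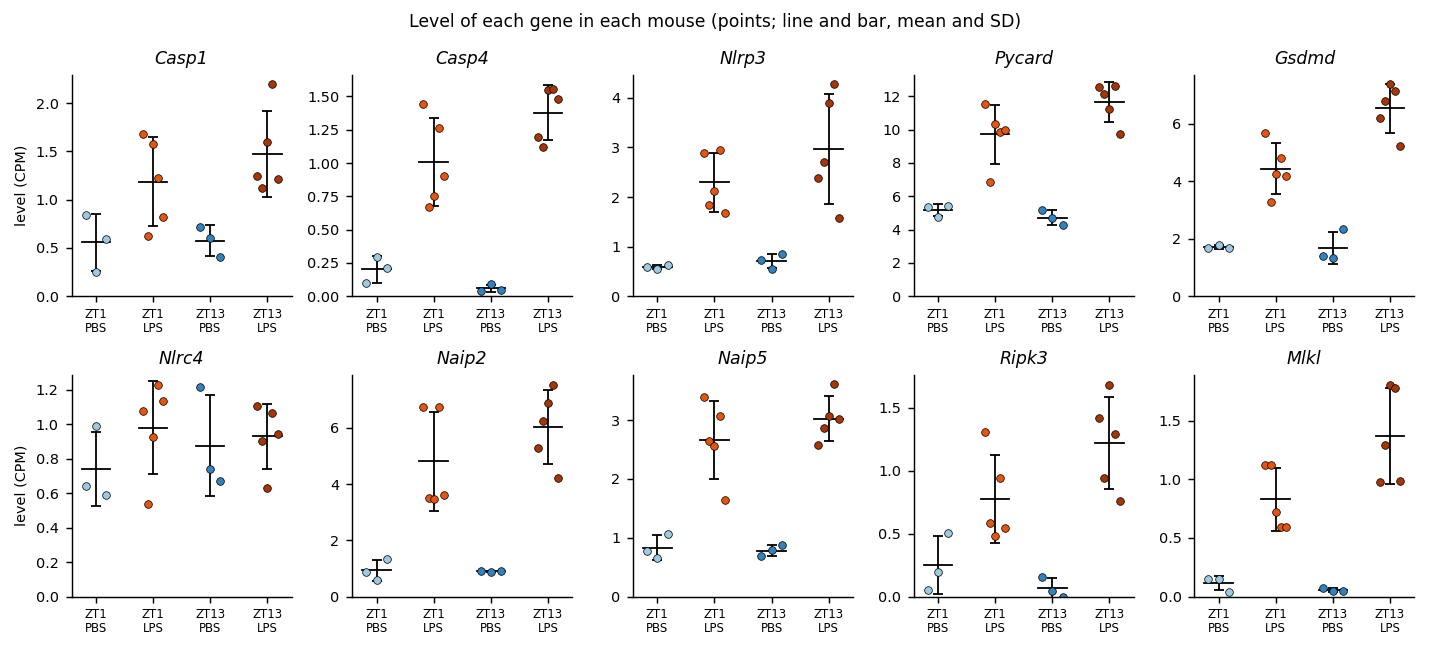
Level in CPM of each of the 10 genes (vertical axes, from 0) in each mouse (points) of the ZT1 PBS, ZT1 LPS, ZT13 PBS and ZT13 LPS groups (horizontal axes), with the mean (line) and SD (bar) of the 3 PBS or 5 LPS mice. In 9 panels the ZT13 LPS mice sit above both PBS groups, while the 4 groups of *Nlrc4* overlap between 0.537 and 1.23 CPM.

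Among the sensors, *Nlrp3* (ENSMUSG00000032691, chr11:59541568-59566956, plus strand) encodes the sensor that responds to ion efflux and membrane damage and whose transcription is the usual priming step. At ZT1, *Nlrp3* was at 0.592, 0.543 and 0.632 CPM in the PBS mice and at 2.89, 1.84, 2.13, 2.94 and 1.68 CPM in the LPS mice. At ZT13 it was at 0.721, 0.555 and 0.851 CPM with PBS and at 2.39, 2.71, 3.90, 4.28 and 1.57 CPM with LPS. Every LPS mouse lay above every PBS mouse at both times, and the LPS groups covered much of the same range, with both the lowest and the highest LPS mouse at ZT13. *Nlrp3* differed from PBS by a log2 fold change of 1.34 (SE 0.18, limma adjusted p = 0.00060) at ZT1 and 1.46 (SE 0.24, limma adjusted p = 0.00035) at ZT13.

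*Naip2* (ENSMUSG00000078945, chr13:100144063-100202092, minus strand) encodes a receptor that binds the rod protein of bacterial type III secretion systems and hands the signal to NLRC4. At ZT1, *Naip2* was at 0.856, 0.593 and 1.35 CPM with PBS and at 6.73, 3.51, 3.48, 6.74 and 3.60 CPM with LPS. At ZT13 the PBS mice were at 0.904, 0.879 and 0.920 CPM and the LPS mice at 5.28, 6.25, 6.88, 7.54 and 4.24 CPM. The groups lay apart at both times, and the ZT1 LPS mice split into a pair near the top of the ZT13 range and 3 mice below all of it. *Naip2* had a log2 fold change of 1.86 (SE 0.26, limma adjusted p = 0.00060) at ZT1 and 2.20 (SE 0.16, limma adjusted p = 2.3e-07) at ZT13.

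*Naip5* (ENSMUSG00000071203, chr13:100211739-100246323, minus strand) encodes the receptor for bacterial flagellin. At ZT1, *Naip5* was at 0.766, 0.655 and 1.07 CPM with PBS and at 3.39, 2.64, 2.55, 3.08 and 1.65 CPM with LPS, and at ZT13 it was at 0.683, 0.786 and 0.872 CPM with PBS and at 2.57, 2.86, 3.06, 3.62 and 3.02 CPM with LPS. All LPS mice stood above all PBS mice, and the lowest of the 10 LPS mice was ZT1 LPS replicate 5. *Naip5* differed from PBS by a log2 fold change of 1.23 (SE 0.20, limma adjusted p = 0.0017) at ZT1 and 1.46 (SE 0.14, limma adjusted p = 3.2e-06) at ZT13. The *Naip* genes are paralogs that share part of their sequence. Of the 50-base words in transcripts, 19.1% of those of *Naip2* and 36.8% of those of *Naip5* also occur in other *Naip* genes. How reads were divided between these genes is therefore uncertain.

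*Nlrc4* (ENSMUSG00000039193, chr17:74425438-74459142, minus strand) encodes the partner that NAIP receptors need to build an inflammasome. At ZT1, *Nlrc4* was at 0.641, 0.988 and 0.589 CPM with PBS and at 1.07, 0.537, 0.927, 1.23 and 1.13 CPM with LPS. At ZT13 the PBS mice were at 1.21, 0.740 and 0.672 CPM and the LPS mice at 1.11, 0.902, 0.629, 1.06 and 0.940 CPM. The groups overlapped at both times, and a PBS mouse was the highest at ZT13. *Nlrc4* differed from PBS by a log2 fold change of 0.25 (95% CI -0.20 to 0.69, limma adjusted p = 0.46) at ZT1 and 0.06 (95% CI -0.34 to 0.47, limma adjusted p = 0.84) at ZT13. The upper bound at ZT13 lies under the lower bound of the *Naip2* interval, 1.85, and of the *Naip5* interval, 1.15, although the difference between the genes was not tested.

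The adaptor *Pycard* (ENSMUSG00000030793, chr7:127989708-127993867, minus strand) encodes ASC, which links most sensors to caspase 1 and forms the speck seen in cells with an active inflammasome. At ZT1, *Pycard* was at 5.33, 4.77 and 5.43 CPM with PBS and at 11.6, 6.83, 10.4, 9.84 and 9.97 CPM with LPS. At ZT13 it was at 5.17, 4.67 and 4.29 CPM with PBS and at 12.5, 12.1, 11.3, 12.6 and 9.71 CPM with LPS. Groups did not overlap at either time, and ZT1 LPS replicate 2 was the lowest of the LPS mice. *Pycard* differed from PBS by a log2 fold change of 0.83 (SE 0.14, limma adjusted p = 0.0025) at ZT1 and 1.22 (SE 0.10, limma adjusted p = 8.1e-07) at ZT13. A transcript on the opposite strand, *Gm45205*, shares 485 exon bases with *Pycard*, and since the sources used here do not say whether counting used strand, reads of the pair cannot be told apart.

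Of the caspases, *Casp1* (ENSMUSG00000025888, chr9:5298517-5307265, plus strand) encodes the protease that matures interleukin 1 beta. At ZT1, *Casp1* was at 0.838, 0.247 and 0.589 CPM with PBS and at 1.68, 0.627, 1.58, 1.23 and 0.816 CPM with LPS. At ZT13 the PBS mice were at 0.721, 0.601 and 0.403 CPM and the LPS mice at 1.24, 1.12, 1.59, 2.20 and 1.21 CPM. The groups overlapped at ZT1, where 2 LPS mice lay under the highest PBS mouse, and lay apart at ZT13. *Casp1* differed from PBS by a log2 fold change of 0.67 (SE 0.26, limma adjusted p = 0.11) at ZT1 and 0.86 (SE 0.20, limma adjusted p = 0.0046) at ZT13. Without ZT1 LPS replicate 2 the ZT1 value became 0.80 with a limma adjusted p of 0.047, and with sample quality weights it was 0.79 with a limma adjusted p of 0.029.

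*Casp4* (ENSMUSG00000033538, chr9:5308828-5336783, plus strand) encodes the caspase that recognises LPS inside the cell. At ZT1, *Casp4* was at 0.0986, 0.296 and 0.211 CPM with PBS, which is 2 to 6 reads, and at 1.45, 0.671, 0.756, 1.26 and 0.906 CPM with LPS. At ZT13 the PBS mice were at 0.0380, 0.0925 and 0.0448 CPM, or 1 to 2 reads each, and the LPS mice at 1.20, 1.12, 1.55, 1.55 and 1.48 CPM. All LPS mice stood above all PBS mice, and the ZT13 PBS mice were at or under the limit of 3 reads. *Casp4* differed from PBS by a log2 fold change of 1.09 (SE 0.21, limma adjusted p = 0.0054) at ZT1 and 1.74 (SE 0.17, limma adjusted p = 3.1e-06) at ZT13. With pseudocounts of 0.1 and 1 the ZT13 value was 3.23 and 1.16, so its size rests on the pseudocount, and at ZT1 it was 1.88 and 0.73. Counted as pooled reads scaled by depth, the ZT13 LPS mice had 164 reads against 4, a ratio of 24.3 (95% exact counting interval 9.33 to 90.4), and the ZT1 LPS mice 124 against 13, a ratio of 4.96 (2.80 to 9.59), where the intervals cover counting error only and not the spread between mice.

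*Gsdmd* (ENSMUSG00000022575, chr15:75862327-75867408, plus strand) encodes gasdermin D, the pore former on which caspase 1 and caspase 4 converge. At ZT1, *Gsdmd* was at 1.68, 1.78 and 1.68 CPM with PBS and at 5.69, 3.27, 4.26, 4.80 and 4.17 CPM with LPS. At ZT13 it was at 1.40, 1.34 and 2.33 CPM with PBS and at 6.20, 6.79, 7.38, 7.12 and 5.24 CPM with LPS. The LPS mice were above the PBS mice at both times, and 4 of the 5 ZT13 LPS mice were above every ZT1 LPS mouse. *Gsdmd* differed from PBS by a log2 fold change of 1.14 (SE 0.15, limma adjusted p = 0.00053) at ZT1 and 1.70 (SE 0.16, limma adjusted p = 2.0e-06) at ZT13.

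On the necroptosis side, *Ripk3* (ENSMUSG00000022221, chr14:55784995-55788865, minus strand) encodes the kinase that receives signals from RIPK1, ZBP1 or TRIF. At ZT1, *Ripk3* was at 0.0493, 0.198 and 0.505 CPM with PBS, or 1, 4 and 12 reads, and at 1.31, 0.582, 0.481, 0.945 and 0.544 CPM with LPS. At ZT13 the PBS mice were at 0.152, 0.0463 and 0 CPM, or 4, 1 and 0 reads, and the LPS mice at 1.42, 0.945, 1.68, 1.29 and 0.761 CPM. One PBS mouse at ZT1 lay above the lowest LPS mouse, and the ZT13 groups lay apart. *Ripk3* differed from PBS by a log2 fold change of 0.77 (SE 0.26, limma adjusted p = 0.070) at ZT1 and 1.58 (SE 0.21, limma adjusted p = 5.9e-05) at ZT13. In a single fit of all 16 mice the ZT1 value passed, with a limma adjusted p of 0.029. With pseudocounts of 0.1 and 1 the ZT13 value was 3.05 and 1.04 and the ZT1 value 1.46 and 0.50. The pooled reads were 145 against 5 at ZT13, a ratio of 17.2 (95% exact counting interval 7.21 to 53.8), and 94 against 17 at ZT1, a ratio of 2.88 (1.71 to 5.15). These intervals cover counting error only and not the spread between mice, and 12 of the 17 reads came from 1 mouse.

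*Mlkl* (ENSMUSG00000012519, chr8:111311797-111338177, minus strand) encodes the executor that disrupts the membrane. At ZT1, *Mlkl* was at 0.148, 0.148 and 0.0421 CPM with PBS, or at most 3 reads, and at 1.12, 1.12, 0.721, 0.595 and 0.589 CPM with LPS. At ZT13 the PBS mice were at 0.0759, 0.0463 and 0.0448 CPM, or at most 2 reads, and the LPS mice at 0.974, 1.29, 1.80, 1.78 and 0.985 CPM. Both PBS groups were at or under the limit of 3 reads, and every LPS mouse was above it. *Mlkl* differed from PBS by a log2 fold change of 1.10 (SE 0.21, limma adjusted p = 0.0042) at ZT1 and 1.72 (SE 0.20, limma adjusted p = 1.9e-05) at ZT13. With pseudocounts of 0.1 and 1 these were 2.12 and 0.71 at ZT1 and 3.20 and 1.15 at ZT13. The pooled ratio was 24.3 (95% exact counting interval 9.33 to 90.4) at ZT13, from 164 reads against 4, and 7.43 (3.48 to 19.0) at ZT1, from 100 reads against 7. Here too the intervals cover counting error only.

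**Figure D2:**
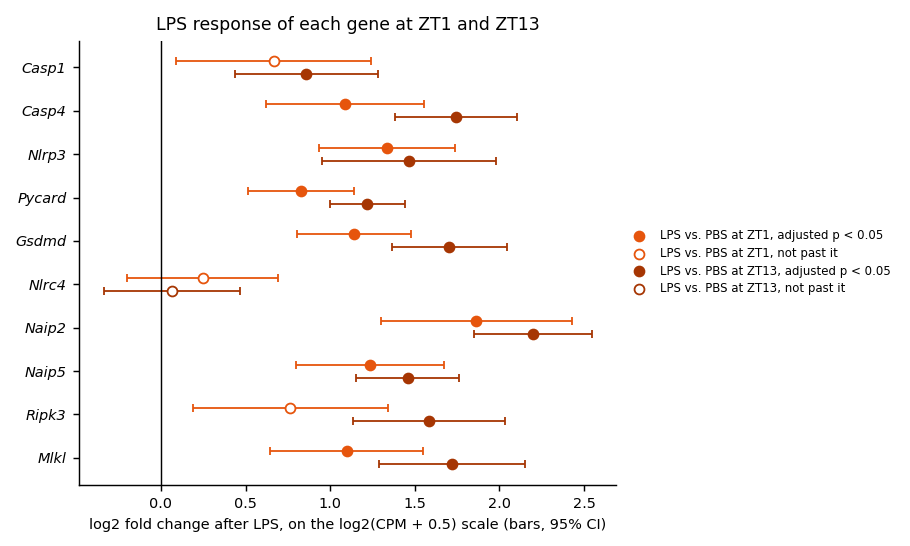
Log2 fold change after LPS on the log2(CPM + 0.5) scale (horizontal axis) for each gene (vertical axis) at ZT1 (upper, lighter) and ZT13 (lower, darker), with 95% confidence intervals from limma. Filled points passed the adjusted p of 0.05, which 7 genes did at ZT1 and 9 at ZT13, and the interval of *Nlrc4* includes 0 at both times.

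Levels of the genes can be set against each other only per length of exon. Per kb, *Pycard* had the highest mean level and *Gsdmd* the second in all 4 groups. With PBS at ZT1 these were 1.36 ± 0.0931 and 0.721 ± 0.0237 CPM per kb over 3 mice (± is the SD), each apart from its next lower neighbour in every mouse, while the 7 genes from *Naip2* down to *Mlkl* lay between 0.0489 and 0.192 CPM per kb with each neighbour overlapping the next. In ZT13 LPS mice the order was *Pycard* at 3.07, *Gsdmd* at 2.75, *Naip2* at 1.25, *Casp1* at 0.983, *Nlrp3* at 0.732, *Mlkl* at 0.593, *Naip5* at 0.581, *Ripk3* at 0.531, *Casp4* at 0.372 and *Nlrc4* at 0.193 CPM per kb. In that order only *Gsdmd* and *Naip2*, and *Casp4* and *Nlrc4*, did not overlap as neighbours. *Nlrc4* stood at rank 5 of 10 with PBS at ZT13 and last with LPS at both times. The adaptor and the pore former were thus the most abundant parts per length in control cortex, and the LPS-sensing caspase and both necroptosis genes the scarcest at ZT13.

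The TOD comparison asks whether the genes differed between mice that received LPS at ZT13 and at ZT1. None of the 10 passed the adjusted threshold, which 0.0212% of all genes did, and 4 had an unadjusted p under 0.05, *Gsdmd*, *Mlkl*, *Ripk3* and *Pycard*, all with higher means at ZT13, where 10.6% of all genes had such a p in either direction and 7.67% with the higher level at ZT13. The study itself reported many more genes past an adjusted p of 0.05 in this comparison, so the lack of calls holds for the present fit only. The median difference of the 10 genes was 0.30 on the log2 scale, beside 0.01 for all genes. The difference was positive for 9 of the 10, against 55.6% of all genes, and *Nlrc4* had the 1 negative value, -0.04 (95% CI -0.39 to 0.31).

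*Gsdmd*, the gene with the smallest p of the 10, had a mean of 4.44 ± 0.890 CPM over 5 mice for ZT1 LPS and 6.55 ± 0.854 CPM over 5 mice for ZT13 LPS. On the log2 scale this was 0.52 (SE 0.13, 95% CI 0.24 to 0.81, limma adjusted p = 0.15). Without ZT1 LPS replicate 1 it was 0.61 with a limma adjusted p of 0.030, and with sample quality weights 0.53 with a limma adjusted p of 0.036. Over the other 9 fits that left out 1 mouse no member passed. ZT1 LPS replicate 1 was the highest of its group for 7 of the 10 genes, and its summed neutrophil markers, 60.9 CPM, and monocyte and macrophage markers, 67.9 CPM, were also the highest of the group. So were its summed astrocyte markers, 1702 CPM, while its summed microglial markers, 312 CPM, were not.

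*Mlkl* averaged 0.829 ± 0.270 CPM over the 5 ZT1 LPS mice and 1.37 ± 0.409 CPM over the 5 ZT13 LPS mice, a log2 difference of 0.49 (95% CI 0.09 to 0.88, limma adjusted p = 0.35). *Ripk3* differed by 0.45 (95% CI 0.01 to 0.88, limma adjusted p = 0.45) and *Pycard* by 0.26 (95% CI 0.0049 to 0.52, limma adjusted p = 0.46). The remaining differences were 0.34 for *Casp4*, 0.34 for *Naip2*, 0.27 for *Nlrp3*, 0.25 for *Casp1* and 0.18 for *Naip5*, each with an interval that included 0. For *Nlrp3* that interval ran from -0.19 to 0.74, so a difference of up to 0.74 in favour of ZT13 lies within the interval.

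In the PBS mice none of the 10 genes differed between ZT13 and ZT1, neither at the adjusted threshold, which 0.52% of all genes passed, nor at an unadjusted p under 0.05, which 13.5% had. The median log2 difference was -0.04, and single genes ranged from -0.37 for *Ripk3* to 0.14 for *Nlrp3*. Between them lay *Casp4* at -0.32, *Mlkl* at -0.14, *Pycard* at -0.13, *Naip5* at -0.05, *Gsdmd* at -0.04, *Naip2* at 0.0019, *Casp1* at 0.05 and *Nlrc4* at 0.14. In CPM, *Casp4* was lower in all 3 ZT13 PBS mice than in all 3 ZT1 PBS mice, with 4 pooled reads against 13. A separation in that direction was shown by 9.21% of all genes. The closest mice, ZT13 PBS replicate 2 at 0.0925 CPM and ZT1 PBS replicate 1 at 0.0986 CPM, both held 2 reads. The groups thus lay apart only through the depth of these libraries. *Ripk3* had 5 reads against 17 in the same comparison, with 12 of the 17 in a single mouse.

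The TOD × LPS interaction, which asks whether the response to LPS itself differed between the times, passed for none of the 10 genes, and 0.159% of all genes passed. An unadjusted p under 0.05 was found for 5, where 9.25% of all genes had one, and all 5 had the larger response at ZT13, as did 5.93% of all genes. These were *Ripk3* at 0.82 (95% CI 0.10 to 1.53, limma adjusted p = 0.45), *Casp4* at 0.66 (0.12 to 1.20, limma adjusted p = 0.41), *Mlkl* at 0.62 (0.04 to 1.21, limma adjusted p = 0.50), *Gsdmd* at 0.57 (0.09 to 1.04, limma adjusted p = 0.43) and *Pycard* at 0.39 (0.01 to 0.77, limma adjusted p = 0.53). For *Ripk3* and *Casp4* the value also holds the PBS mice, where the ZT13 minus ZT1 differences were -0.37 and -0.32 at 0 to 12 reads in a mouse. The response of *Nlrp3*, the sensor that is primed by transcription, differed by 0.13 (95% CI -0.55 to 0.80), an interval that holds differences in either direction. For *Naip2* the interaction was 0.33, for *Naip5* 0.22, for *Casp1* 0.19 and for *Nlrc4* -0.18, each with an interval that included 0. A call at ZT13 and none at ZT1, as for *Casp1* and *Ripk3*, therefore did not amount to a tested difference between the times.

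**Figure D3:**
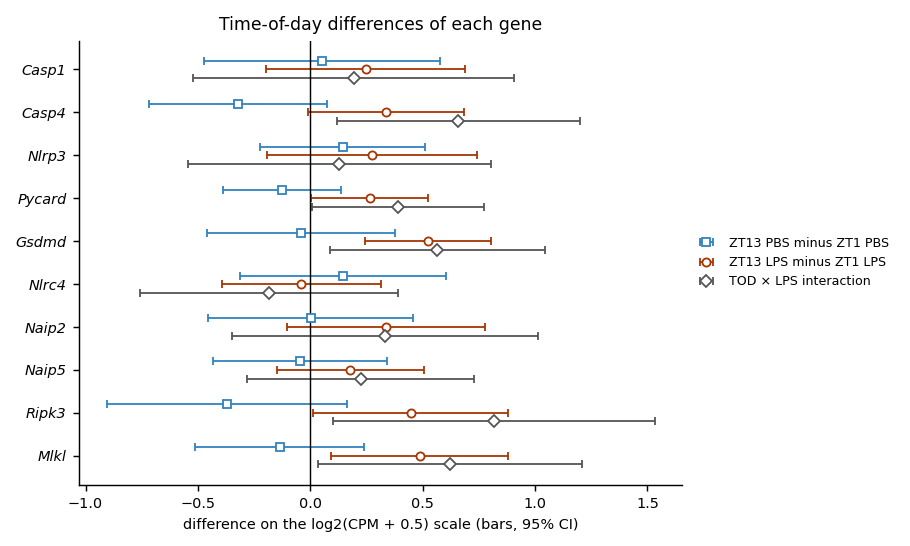
Differences on the log2(CPM + 0.5) scale (horizontal axis) for each gene (vertical axis) between ZT13 and ZT1 in PBS mice (squares), between ZT13 and ZT1 in LPS mice (circles) and for the TOD × LPS interaction (diamonds), with 95% confidence intervals from limma. None passed the adjusted threshold, the PBS intervals all include 0, and the LPS interval of *Gsdmd* runs from 0.24 to 0.81.

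Across the 16 mice, the likeness of 2 genes was measured as the root mean square difference between their standardized log2 levels, where 0 means the same pattern. The closest pair among the 10 was *Naip2* and *Naip5* at 0.225, followed by *Nlrp3* and *Naip2* at 0.249. How reads were divided between the *Naip* copies is uncertain, and the part of shared reads in the closeness of *Naip2* and *Naip5* was not tested. *Nlrc4* was the farthest from each of the others, at 1.07 from *Pycard* up to 1.29 from *Mlkl*. Among genes outside the lists used here, the nearest to *Casp4* was *Gusb*, a lysosomal enzyme, at 0.153, and the nearest to *Nlrp3* was *Psme1*, a proteasome activator subunit, at 0.167. The nearest to *Pycard* was *Pik3ap1*, an adaptor of PI3 kinase signalling, at 0.187, to *Gsdmd* the metal transporter *Slc39a14* at 0.151, and to *Mlkl* the transcription factor *Stat3* at 0.163. The nearest genes to the sensors *Naip2* and *Naip5* were *Fcgr2b* at 0.182, which encodes an inhibitory Fc receptor, and *Aoah* at 0.201, which encodes an enzyme that inactivates LPS. *Ripk3* lay nearest to *Sla*, an adaptor of antigen receptor signalling, at 0.288, *Casp1* to *Taf1d* at 0.316 and *Nlrc4* to *Fcgrt* at 0.580. The distances are taken over all 4 groups together and are given as a description.

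The other genes of these pathways were counted from 7 lists of 52 genes, of which 46 passed the filter, and *Nlrp1a*, *Naip1*, *Gsdma*, *Gsdmc*, *Il1a* and *Ly96* did not. After LPS, 26 of the 46 rose and none fell at ZT1, where 11.1% of all genes rose, and 35 rose and 1 fell at ZT13, where 19.2% of all genes rose. Some of these genes, such as *Mefv*, *Il1rn* and *Tnf*, stayed under 1 CPM in every PBS mouse and passed the filter only through LPS mice. A fall was hardly open to them. These lists were also chosen with earlier results of these data known, so the counts are a description. The ZT1 count was 17 without ZT1 PBS replicate 1 or 3 and 12 without the filter. None passed between the LPS groups, between the PBS groups or in the interaction. The median log2 fold change of the 46 genes was 0.57 at ZT1 and 0.80 at ZT13, beside 0.04 and 0.05 for all genes.

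Of 7 other sensors and adaptors tested, 5 rose at ZT1 and 6 at ZT13. *Nlrp12*, a NOD-like receptor of myeloid cells, was at 0 to 0.224 CPM in all 6 PBS mice and at 0.134 to 1.79 CPM in ZT1 LPS and 1.12 to 2.81 CPM in ZT13 LPS mice. *Naip6*, a flagellin receptor whose reads overlap those of *Naip5*, rose by 1.19 at ZT1 and 1.50 at ZT13 on the log2 scale. *Mefv*, which encodes pyrin, rose by 0.89 and 1.39. *Nlrp1b* was 0.65 higher at ZT1, where it did not pass (limma adjusted p = 0.21), and rose by 1.13 at ZT13.

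Among the other caspases, *Casp8*, which starts apoptosis and holds necroptosis in check, rose by 1.33 at ZT1 and 1.41 at ZT13. *Casp12* rose by 0.99 at ZT13 and was 0.59 higher at ZT1, where it did not pass (limma adjusted p = 0.054). *Casp9* was 0.05 higher at ZT1 and rose by 0.23 at ZT13. Of the other pore formers and rupture proteins, 2 were tested, and *Ninj1*, which tears the membrane at the end of lytic death, rose at ZT13 by 0.36 (SE 0.09, limma adjusted p = 0.0080) and at ZT1 was 0.18 higher (limma adjusted p = 0.36).

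Of the 5 cytokine genes tested, *Il1b*, whose product caspase 1 releases, averaged 0.249 ± 0.0986 CPM over 3 PBS mice and 1.37 ± 0.706 CPM over 5 LPS mice at ZT1, and it rose. It also rose at ZT13, where the 3 PBS mice averaged 0.0743 ± 0.0977 CPM and the 5 LPS mice 1.97 ± 0.571 CPM. *Il1rn*, which encodes the antagonist of the interleukin 1 receptor, was at 0 CPM in all 3 ZT1 PBS mice and at 0.884 ± 0.590 CPM in the 5 LPS mice there, and averaged 2.29 ± 1.33 CPM in the 5 ZT13 LPS mice. *Il33*, an alarmin held in glial nuclei, was the 1 gene that fell, by 0.25 at ZT13 (limma adjusted p = 0.022), and its ZT1 difference was -0.45 (limma adjusted p = 0.071). No pathway gene was called lower at ZT13 with the replicate block, in a single fit of all 16 mice, without the filter, or without ZT13 PBS replicate 1 or 3, so the call of *Il33* was lost there. *Il18*, the other cytokine that caspase 1 matures, differed by -0.08 at ZT1 and -0.06 at ZT13 and did not pass (limma adjusted p = 0.78 and 0.75); it was named after its values were seen.

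Of the 8 genes that feed into necroptosis, 4 rose at ZT1 and 7 at ZT13. *Zbp1*, a sensor of Z-form nucleic acids that can activate RIPK3 directly, was at 0.0493 to 0.253 CPM in ZT1 PBS mice and 0 CPM in all 3 ZT13 PBS mice. With LPS it was at 3.15 to 4.66 CPM at ZT1 and 2.01 to 6.21 CPM at ZT13. *Tnfrsf1a*, the receptor of TNF, rose by 1.19 at ZT1 and 1.80 at ZT13, and *Ripk1*, the kinase downstream of it, by 0.54 and 0.75. *Tnf* was at 0 to 0.0421 CPM in the 6 PBS mice, at 0.134 to 0.560 CPM in ZT1 LPS mice and at 0.537 to 1.55 CPM in ZT13 LPS mice, with a call at ZT13 and a limma adjusted p of 0.056 at ZT1.

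Of the 8 genes that restrain caspase 8 and necroptosis, 4 rose at ZT1 and 6 at ZT13. *Birc3*, a ubiquitin ligase of the TNF receptor complex, rose by 1.23 and 1.99, *Tnfaip3*, the deubiquitinase A20, by 0.60 and 1.38, *Cflar*, a decoy of caspase 8, by 0.57 and 0.91, and *Birc2* by 0.24 and 0.26. All 9 tested genes for induction and for access of LPS to the cytosol rose at both times. The guanylate-binding proteins, which coat bacteria and expose their LPS to caspase 4, were among the largest, with *Gbp2* at 1.51 ± 0.405 CPM in the 3 PBS mice and 19.9 ± 9.29 CPM in the 5 LPS mice of ZT1. At ZT13 *Gbp2* averaged 1.21 ± 0.146 CPM over 3 PBS mice and 30.4 ± 15.2 CPM over 5 LPS mice. *Gbp5* rose by 2.84 and 2.80, *Gbp3* by 2.41 and 2.61, and the LPS co-receptor gene *Cd14* by 1.62 and 2.40.

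Between the LPS groups, 4 genes of these lists lay close to the threshold, each higher at ZT13: *Cd14* at 1.15 (limma adjusted p = 0.096), *Tnf* at 0.92 (limma adjusted p = 0.12), *Birc3* at 0.55 (limma adjusted p = 0.14) and *Tnfrsf1a* at 0.35 (limma adjusted p = 0.14). All 4 passed with sample quality weights and also without ZT1 LPS replicate 1, where they were at 1.23, 1.02, 0.63 and 0.40. *Cd14* and *Tnf* also passed in a single fit of all 16 mice, and *Cd14* without ZT1 LPS replicate 2, at 0.90. These genes were named here because alternative fits called them. In the interaction, *Tnfaip3* (0.78, limma adjusted p = 0.068) passed with median-of-ratios scaling, with sample quality weights and without ZT1 LPS replicate 1 (0.83), and *Tnfrsf1a* (0.61, limma adjusted p = 0.12) with the last 2 of these (0.66 without that mouse).

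**Figure D4:**
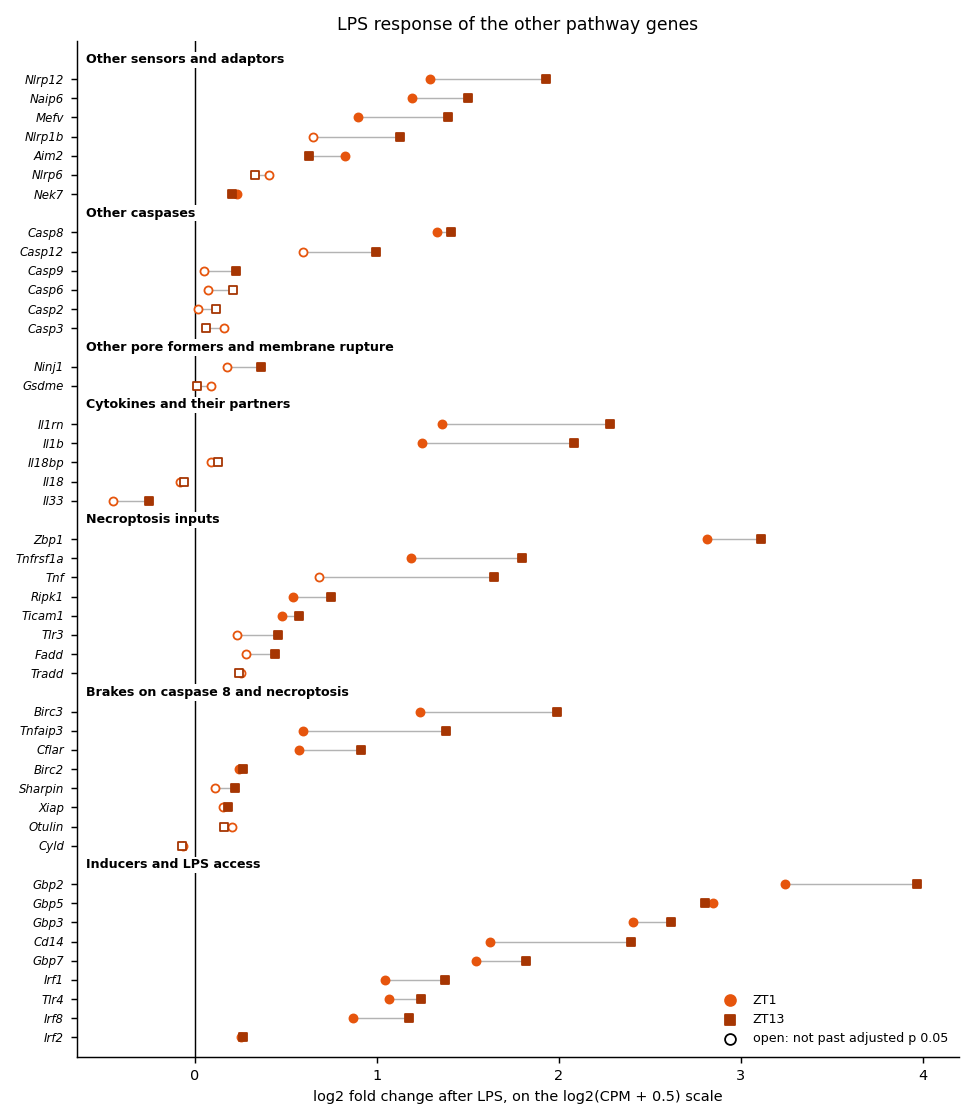
Log2 fold change after LPS on the log2(CPM + 0.5) scale (horizontal axis) of 45 other pathway genes that were tested, grouped by role (vertical axis), at ZT1 (circles) and ZT13 (squares), with filled symbols past the adjusted p of 0.05. 25 circles and 35 squares are filled, *Il33* is the 1 filled symbol below 0, and the distances of genes at or near 0 CPM with PBS, such as *Zbp1*, *Tnf* and *Il1rn*, depend on the pseudocount.

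Markers of cells that carry this machinery moved with LPS as well, where 11.1% of all genes rose at ZT1 and 19.2% at ZT13. Some markers, such as *S100a8*, *Mmp8* and *Ccr2*, stayed under 1 CPM in every PBS mouse, so a fall was hardly open to them. The 8 microglial markers summed to 200 to 223 CPM in PBS mice, 218 to 354 CPM in ZT1 LPS and 258 to 306 CPM in ZT13 LPS mice, and 6 of the 8 rose while *P2ry12* and *Siglech* fell at both times. The 11 neutrophil markers summed to 1.80 to 2.86 CPM in PBS mice, 14.5 to 60.9 CPM in ZT1 LPS and 43.5 to 107 CPM in ZT13 LPS mice. Of these, 6 were tested and 5 rose at ZT1 and 6 at ZT13, while *Camp*, *Ltf*, *Ly6g*, *Mpo* and *Elane* were under the filter. *Elane* was at 0 in 14 of the 16 mice, and *Ly6g* was at or under 3 reads in 15. *Mpo* ran lower with LPS, with overlap. It was at 0.126 to 0.641 CPM with PBS and 0.0453 to 0.172 CPM with LPS at ZT1. At ZT13 it was at 0.0896 to 0.833 CPM with PBS and 0 to 0.265 CPM with LPS. The rise of the sum was thus not shared by all 11 markers. The 8 monocyte and macrophage markers summed to 9.65 to 14.0 CPM in PBS mice, 19.6 to 67.9 CPM in ZT1 LPS and 51.8 to 75.3 CPM in ZT13 LPS mice, with 6 of 7 tested genes rising at both times. The part of these cells in the changes of the 10 genes was not tested.

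ZT1 LPS replicate 2 was the lowest of its group for 5 of the 10 genes and had the lowest microglial sum, 218 CPM, and the lowest monocyte and macrophage sum, 19.6 CPM. Its summed astrocyte markers, 1165 CPM, and endothelial markers, 126 CPM, were also the lowest of the group, so the low values were not limited to myeloid markers. Its neutrophil sum, 15.1 CPM, lay close to the lowest of the group, 14.5 CPM in replicate 5. Its summed erythrocyte markers, 35.8 CPM, were the highest. ZT13 LPS replicate 4 was the highest for 6 of the 10 genes, with a neutrophil sum of 107 CPM, level with replicate 3. Its monocyte and macrophage sum, 75.3 CPM, was the highest of its group. Its microglial sum, 261 CPM, was under those of 3 of the other 4 mice. In the same group, replicate 5 was the lowest for 5 genes and had the lowest neutrophil sum of its group, 43.5 CPM. Its monocyte and macrophage sum, 51.8 CPM, and its summed astrocyte markers, 1496 CPM, were also the lowest there. Between the LPS groups, an unadjusted p under 0.05 was found for 5 of 6 tested neutrophil and 3 of 7 monocyte and macrophage markers. All were higher at ZT13, and 7.67% of all genes had such a p with the higher level at ZT13. None passed after adjustment, which 0.0212% of all genes did.

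Markers of other cell types were checked as well. Of 7 lymphocyte markers 1 was tested and did not pass, and none of the 5 erythrocyte markers passed at either time. None of 5 neuronal markers passed at ZT1 and 3 fell at ZT13, 4 of 5 astrocyte markers rose at both times, and of 4 oligodendrocyte markers 1 rose at both times, with 1 falling at ZT1 and 2 at ZT13. Of 5 endothelial markers 2 rose and 1 fell at ZT1, and all 5 rose at ZT13. The ZT13 PBS mice started lower, with *Cldn5*, *Flt1* and *Kdr* called lower than in ZT1 PBS mice. Between the PBS groups 0.52% of all genes were called in either direction. Of the 5 endothelial markers, 4 passed the TOD × LPS interaction, which 0.159% of all genes passed.

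**Figure D5:**
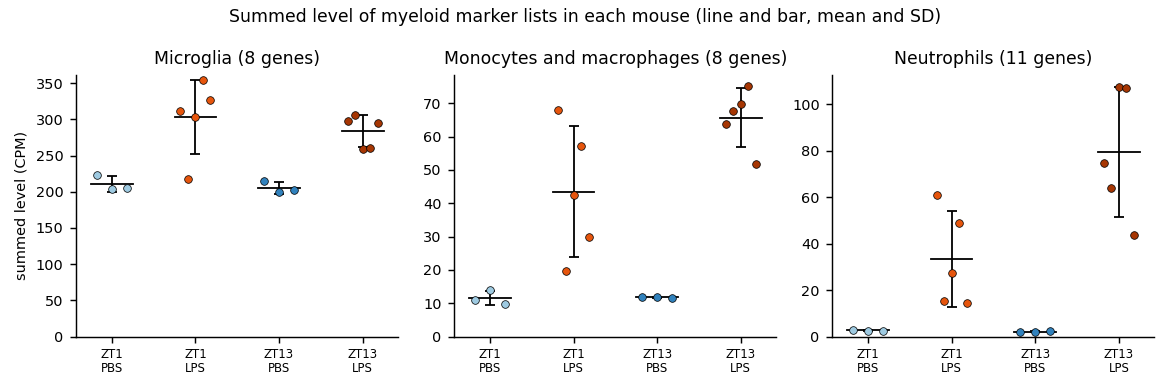
Summed level in CPM (vertical axes, from 0) of the microglial, monocyte and macrophage, and neutrophil marker lists in each mouse (points) of the 4 groups (horizontal axes), with the mean (line) and SD (bar) of the 3 PBS or 5 LPS mice. The neutrophil sum is at most 2.86 CPM in PBS mice and reaches 43.5 to 107 CPM in ZT13 LPS mice.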

How the data were processed

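Total RNA from the cortex of 16 mice was depleted of ribosomal RNA and sequenced. A single table of CPM was deposited by the authors, scaled by library total with no other factor, and the processing notes of the submitters name bcl2fastq, DRAGEN 4.0.3-8 and GRCm38. The table has 55774 lines, of which 287 repeat a gene and were removed. The spacing of low CPM values gave the reads of each mouse, 20251840 to 29112758 with a median of 22459623, but only 80.7% to 82.8% of values up to 20 reads were whole to within 0.01 read, so no count model was run. Intervals and limits from reads cover counting error only.

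The 10 members and all lists were chosen with earlier results of these data known. All are named in every comparison. Of each pathway list, up to 4 genes called after LPS with the largest change at ZT13 are named, and for each member the nearest gene by pattern. The result of 1 pathway gene is not reported here. Genes that reached 1 CPM in 3 or more mice were compared as log2(CPM + 0.5) using limma 3.58.1 (R 4.3.3), with eBayes moderation that follows the mean level and Benjamini-Hochberg adjustment over 18859 genes. Pairs of groups were fitted alone and the interaction on all 16 mice, and ± gives the SD. Mice were separate samples in the labels, and replicate numbers were not treated as pairs. The fits were tested on simulated data. Alternatives were pseudocounts of 0.1 and 1, no filter, a filter at 5 CPM, median-of-ratios scaling, sample quality weights, a single fit, no trend, a replicate block, the other treatment field, and leaving out each mouse. Exon lengths and coordinates came from GENCODE M21 and promoter windows from RefSeq, which held 9 of the 10 members and not *Gsdmd*. Python 3.11.15, scipy 1.17.1 and Biopython 1.88 were used.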

Additional observations from a re-analysis of the deposited data

How the results depend on the processing

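Of 885 refits of single members, 862 kept direction and side of the threshold, 5 gained a call and 18 changed sign, all 18 in values that were not called. Raising the filter to 5 CPM left only 3 members in the test, and 3 were called at ZT1 and 3 at ZT13, with a median log2 fold change of 1.70 at ZT13. Leaving out each mouse called 7 to 8 at ZT1 and 9 at ZT13. With the contradictory treatment field 0 were called at either time. The median was 1.51 at ZT1 and 1.89 at ZT13 with a pseudocount of 0.1, and 0.75 and 1.16 with a pseudocount of 1. Of the other pathway genes, 12 were called at ZT1 when all genes above 0 CPM were tested, and 17 at ZT1 and 23 at ZT13 at 5 CPM. Leaving out each mouse gave 17 to 27 at ZT1, lowest without ZT1 PBS replicate 1 or 3, and 29 to 36 at ZT13.

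Between the LPS groups, quality weights called 1 member, *Gsdmd*, and 4 pathway genes, and a single fit called 2 pathway genes. Leaving out each mouse called 0 to 1 member and 0 to 4 pathway genes, the highest without ZT1 LPS replicate 1, and without ZT1 LPS replicate 2 it called 1 pathway gene. For the interaction, pathway calls were 1 with median-of-ratios scaling, 2 with quality weights and 0 to 2 over single mice left out, again highest without ZT1 LPS replicate 1. The cause was not tested.

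Leaving out single mice moved *Nlrc4* between -0.041 and 0.23 at ZT13 and between -0.16 and 0.043 across the LPS groups, and the *Nlrp3* interaction between -0.0022 and 0.30. Across the PBS groups it moved *Casp1* between -0.18 and 0.24, *Gsdmd* between -0.24 and 0.069, *Nlrc4* between -0.026 and 0.28, *Naip2* between -0.18 and 0.20 and *Naip5* between -0.14 and 0.080. *Naip2* there was -0.0050 with a pseudocount of 1 and -0.021 with quality weights.

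Replicate numbers appear in every group, but residuals of 20 same-numbered pairs correlated at -0.20 to 0.33 and 4 of 16 mice correlated best with their own number. With the replicate number as a block, 7 members at ZT1 and 9 at ZT13 were called, and 20 and 34 pathway genes. The block called none in the other comparisons. With 0 to 12 reads on *Casp4*, *Ripk3* and *Mlkl* in each PBS mouse, small differences between the PBS groups were not detectable at this depth.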
